A study of Mus musculus with 3 samples.

Results

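Thick ascending limb-like cells were picked from the open chromatin of single mouse kidney cells from mice whose mitochondrial genomes carry a trnE point mutation, which lies in the glutamate tRNA. Open chromatin was read by mtscATAC-seq, in which transposase cuts accessible DNA in fixed and permeabilised cells that keep their mitochondria. A barcode, taken as a cell, was a member when its counts in peaks at Slc12a1, Umod, Kcnj1, Cldn16, Cldn19 and Bsnd came to at least 4 over at least 2 of these genes. That score also had to equal or exceed the counts at 5 proximal tubule genes (Slc34a1, Slc22a6, Slc22a8, Miox and Slc5a12) and to exceed those at 6 collecting duct genes (Aqp2, Aqp3, Scnn1b, Scnn1g, Atp6v1g3 and Foxi1). A gene took in its body and 2 kb on each side. The rule gave 293 members of the 8194 barcodes with at least 1000 counts in old replicate 2 and the young library.

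Old replicate 2 came from a trnE-mutant kidney of 75 weeks with 80% mutation load, the percent of mitochondrial genomes that carry the mutation. The young library came from a trnE-mutant kidney of 3 weeks with 80% load. The series also holds old replicate 1, of 75 weeks and 75% load. All groups carry the mutation, the labels used here give no sex and do not say whether the old libraries came from separate animals, and each age had 1 library in the comparison. Age and library therefore cannot be told apart, no test between ages was possible, and every interval below covers counting error only.

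The thick ascending limb is the stretch of the nephron that reabsorbs salt without water. The Na-K-2Cl cotransporter encoded by Slc12a1 brings salt in from the lumen, the potassium channel Kcnj1 returns potassium to it, and chloride leaves on the other side through channels that need the subunit barttin, encoded by Bsnd. Its cells secrete uromodulin, encoded by Umod, and pass calcium and magnesium between cells through the claudins Cldn16 and Cldn19. The segment depends on mitochondria for the ATP that drives its sodium pump.

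The members were 178 of 4083 barcodes in old replicate 2, or 4.36% (exact Clopper-Pearson 95% interval 3.75% to 5.03%), and 115 of 4111 in the young library, or 2.80% (2.31% to 3.35%). The share was higher in the old library under the rule and in some other settings given in the closing section, but not at a stricter score. With a score of at least 8 it was 1.25% in old replicate 2 and 1.22% in young. With each barcode thinned to 3000 fragments before scoring, an alternative added after the data had been seen, it was 1.89% and 1.57%; this left out 746 and 597 shallower barcodes. The median member had 16617 counts in old replicate 2 and 16886 in young, while proximal tubule-like barcodes, chosen by the same scores, had 19317 and 32501.

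Most members sat close to the threshold. The median score was 6 in both libraries, and the highest was 20 in old replicate 2 and 31 in young. A score of exactly 4 was held by 80 members (44.9%) of old replicate 2 and by 35 (30.4%) of the young library. Counts came from only 2 of the 6 genes in 120 and 74 members. Just outside the rule, 249 and 137 barcodes had a score of 2 or 3, 50 and 37 had their counts at a lone gene, and 146 and 360 had more proximal tubule than thick ascending limb counts. No barcode sequence was shared between the members of old replicate 2 and young, although 32 barcodes were shared between these libraries as a whole.

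The cell type label could not be settled by the clustering. When all barcodes were clustered on their open regions, a single cluster took 104 of the 178 members in old replicate 2 (58.4%) and 68 of the 115 in the young library (59.1%). This cluster took 8.06% of the clustered barcodes of old replicate 2 and 4.84% of those of young. It is called the Cldn8 cluster here, after the tight junction gene that led it: Cldn8 had 47.4 and 52.1 CPM (counts in a gene's regions per 1000000 counts in regions) in the cluster and 0.428 and 0.617 in all other barcodes of old replicate 2 and young. Oxgr1, Rassf9, Klk1, Kcnj1, Bsnd, Krt7 and Hk1 were also among its leading genes. Cldn8, Klk1, which encodes kallikrein, and Krt7 are known from segments past the thick ascending limb, so the cluster is not named after a cell type. These clusters were built on the same counts that the rule used and give no test of it.

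Markers that the rule did not use differed between members inside and outside the cluster. Over 10 proximal tubule genes outside the rule, among them the endocytic receptor gene Lrp2 and the transcription factor gene Hnf4a, members in the Cldn8 cluster had 409 CPM in old replicate 2 and 339 in young. Members elsewhere had 1186 and 1014. Proximal tubule-like barcodes had 1372 and 1403, and barcodes of no class had 1115 and 909. Hnf4a alone stood at 38.9 and 19.6 CPM in members of the Cldn8 cluster against 253 and 268 in proximal tubule-like barcodes.

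**Figure D1:**
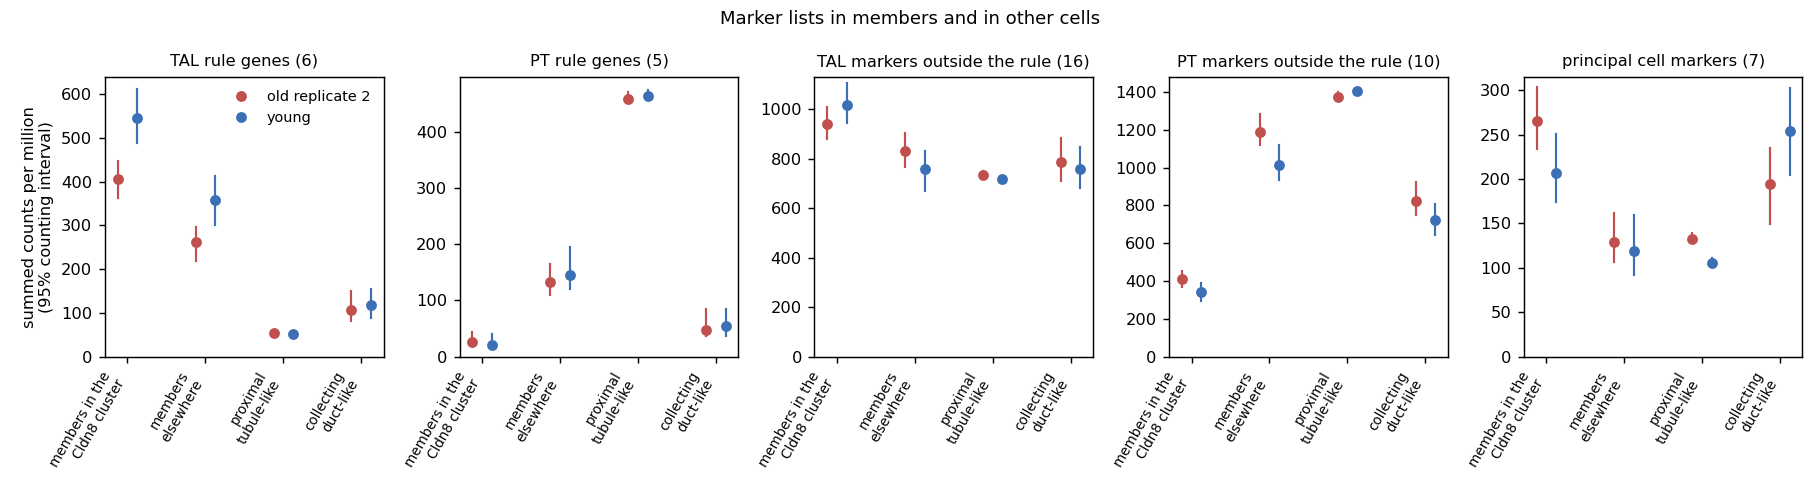
Summed CPM (vertical axes, linear from 0) of 5 marker lists in members inside and outside the Cldn8 cluster and in proximal tubule-like and collecting duct-like barcodes. TAL is thick ascending limb and PT proximal tubule, points are library sums and lines their 95% counting intervals. Members outside the cluster sit at 1186 and 1014 CPM for the proximal tubule genes outside the rule, against 409 and 339 inside it.

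The thick ascending limb genes outside the rule separated the members only weakly. The sum over 16 such genes was 891 CPM in old replicate 2 and 903 in young, 1.21 and 1.26 times that of proximal tubule-like barcodes. Irx2, a transcription factor gene, stood at 32.3 and 29.7 CPM, 2.74 and 3.32 times the level of proximal tubule-like barcodes. Pou3f3, a transcription factor gene of the distal nephron, stood at 48.8 and 75.0 CPM, or 2.28 and 2.52 times. Cldn10, a sodium-selective claudin of this segment, was lower in members than in proximal tubule-like barcodes, at 94.4 and 114 CPM against 148 and 166. The Cldn10 locus also serves an isoform of the proximal tubule, and counts over the whole gene cannot separate the isoforms.

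Genes of neighbouring segments were also read. The 7 distal convoluted tubule genes summed to 508 and 569 CPM in members and 362 and 376 in proximal tubule-like barcodes, and 77 members in old replicate 2 and 45 in young had at least as many counts at 5 of those genes as at the thick ascending limb genes. Slc12a3, the thiazide-sensitive cotransporter that defines the distal convoluted tubule, was at 114 and 125.4 CPM in members, near its 113 and 106 in proximal tubule-like barcodes. The 7 principal cell genes outside the rule summed to 205 and 169 CPM in members against 133 and 106 in proximal tubule-like barcodes, led by the sodium channel subunit Scnn1a with 110 and 103. Among immune markers, Adgre1, Cx3cr1 and Lyz2 had no region with a peak in both libraries, and the 9 macrophage or dendritic cell genes summed to 101 and 94.6 CPM, near the 94.6 and 88.0 of proximal tubule-like barcodes.

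Each rule gene is described here without a test, since the rule used its counts. Slc12a1 (chr2:125152510-125230002, mm10) had 82.5 CPM in members of old replicate 2 and 145 in members of the young library, 0.569 times (95% counting interval 0.439 to 0.710). Umod (chr7:119462708-119479262) had 59.4 and 89.6 CPM, 0.663 times (0.492 to 0.898). Kcnj1 (chr9:32372418-32399197) had 84.8 and 114.8 CPM, 0.739 times (0.574 to 0.959). Bsnd (chr4:106483456-106492243) had 83.5 and 90.6 CPM, 0.921 times (0.694 to 1.21). These counts chose the members, and the old members more often had the lowest score, so the folds describe the members and nothing is read from their intervals. In old replicate 2 and young, 57.9% and 68.7% of members had a count at Slc12a1, against 17.5% and 21.8% of proximal tubule-like barcodes, and 60.7% and 55.7% had a count at Kcnj1, against 8.5% and 9.31%. Cldn16 and Cldn19 rested on few fragments: 11 and 7 at Cldn16, and 37 and 19 at Cldn19.

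The same genes were read over all barcodes of the Cldn8 cluster, whatever their score. Over its 329 barcodes in old replicate 2 and 199 in young, Slc12a1 had 49.9 and 81.4 CPM (0.612 times, 0.451 to 0.787) and Umod 36.9 and 53.3 (0.692 times, 0.499 to 0.989). Kcnj1 came to 83.8 and 103 CPM there (0.815 times, 0.657 to 1.05) and Bsnd to 91.1 and 87.5 (1.04 times, 0.812 to 1.32). In the same barcodes the 7 principal cell genes summed to 273 CPM in old replicate 2 and 223 in young. The part of a different mix of segments in these folds was not tested. Within Slc12a1, the intronic region chr2:125167592-125168493 had 5.94 and 37.8 CPM over all members but 7.18 and 3.56 in those of the Cldn8 cluster, so its difference came from members elsewhere.

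The open regions over the 2 start sites that passed a minimum of 10 fragments in each library are shown with the promoters they cover. The region at the Slc12a1 start, chr2:125152257-125152815, had 10.2 CPM in members of old replicate 2 and 25.7 in members of the young library, against 1.17 and 0.603 in proximal tubule-like barcodes. The region at the Umod start, chr7:119479013-119479923, had 49.2 and 58.9 CPM against 10.7 and 13.97. Beside them stand the promoters at a start within Hk1, a hexokinase gene described with the comparison by gene, and of Klk1. The region over that Hk1 start, chr10:62339872-62340728, had 44.9 and 56.9 CPM in members and 7.55 and 8.57 in proximal tubule-like barcodes. The region over the Klk1 start, chr7:44224825-44225733, had 19.8 and 24.2 CPM against 0.382 and 0.370.

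The sequences run 5′ to 3′ on the strand of the gene, from 250 bases before to 50 after the start, as RefSeq gives them for GRCm38.p6, the build also called mm10. They lie at chr2:125152350-125152649 (Slc12a1, plus strand), chr7:119479213-119479512 (Umod, minus strand), chr10:62340372-62340671 (Hk1, minus strand) and chr7:44225110-44225409 (Klk1, plus strand). Capitals mark letters that match 1 of 9 searched motifs, here a TFAP2 motif at Umod.
Slc12a1: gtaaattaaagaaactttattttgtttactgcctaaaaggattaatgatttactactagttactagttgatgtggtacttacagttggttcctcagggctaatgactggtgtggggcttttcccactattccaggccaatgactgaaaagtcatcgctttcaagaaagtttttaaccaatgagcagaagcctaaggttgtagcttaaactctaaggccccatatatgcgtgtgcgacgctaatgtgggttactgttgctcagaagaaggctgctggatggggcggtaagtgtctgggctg
Umod: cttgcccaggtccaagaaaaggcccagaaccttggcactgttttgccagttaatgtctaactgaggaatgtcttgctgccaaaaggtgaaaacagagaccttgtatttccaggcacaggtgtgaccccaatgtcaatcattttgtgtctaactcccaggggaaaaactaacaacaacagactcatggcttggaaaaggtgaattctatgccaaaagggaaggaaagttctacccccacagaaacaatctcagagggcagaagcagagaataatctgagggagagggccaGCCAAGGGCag
Hk1: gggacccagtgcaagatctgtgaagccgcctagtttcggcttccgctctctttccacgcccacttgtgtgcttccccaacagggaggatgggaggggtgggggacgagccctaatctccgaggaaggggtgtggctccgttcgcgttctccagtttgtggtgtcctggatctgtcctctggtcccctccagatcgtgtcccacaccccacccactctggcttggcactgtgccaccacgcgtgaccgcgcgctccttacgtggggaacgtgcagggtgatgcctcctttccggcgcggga
Klk1: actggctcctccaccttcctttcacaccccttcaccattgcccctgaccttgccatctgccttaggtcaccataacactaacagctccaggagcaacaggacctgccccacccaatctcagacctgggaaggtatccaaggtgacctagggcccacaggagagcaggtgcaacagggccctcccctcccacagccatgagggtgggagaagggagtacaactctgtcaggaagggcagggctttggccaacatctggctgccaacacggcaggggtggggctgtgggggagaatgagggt
The TFAP2 letters, GCCNNNGGC, read the same on both strands in their fixed bases and overlap no other motif at Umod. They occurred in 26 of 116 promoters inside regions at least 4-fold more open in members than in proximal tubule-like barcodes (22.4%), in 26.3% of 11246 promoters in any counted region and in 16.6% of all 32851 promoters. The POU letters ATGCAAAT, on either strand, occurred in 6 of the 116 promoters (5.17%), in 1.44% of promoters in counted regions and in 1.74% of all. A match is a description of the letters and not a bound site.

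Members differed from proximal tubule-like barcodes mainly away from start sites. Of 25631 regions with at least 10 fragments in members of each library, 1329 (5.19%) were at least 4-fold more open in members in both libraries. The rule chose the members against proximal tubule genes, so the count is a description. Over the chromosomes with listed start sites, 7.19% of these regions covered a start site against 35.2% of all counted regions. Regions elsewhere in a gene made up 57.8% against 45.6%, and regions outside genes 35.0% against 19.2%. Hk1 and Ephb2, an ephrin receptor gene, each held 4 such regions of 5 and 6 counted, Kcnj1 held 3 of 3 and Slc12a1 3 of 4. These genes were picked after their counts had been seen.

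Single regions were open in members and nearly closed in proximal tubule-like barcodes. The following regions were also named after their values had been seen. A region within Mecom, a transcription factor gene, at chr3:30107834-30108897 had 19.8 and 29.7 CPM in members and 0.215 and 0.413 in proximal tubule-like barcodes. A region within Ildr1, a gene of tricellular junctions, at chr16:36707692-36708582 had 30.0 and 38.3 CPM against 0.382 and 0.413. A region at Cldn8, chr16:88562885-88563863, had 33.3 and 34.2 CPM against 0.454 and 0.603. A region within Atp6v1b1, a proton pump subunit gene known from intercalated cells, at chr6:83743850-83744932 had 34.3 and 38.3 CPM against 0.669 and 0.593.

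The 1329 regions drew 2.01% of the members' counts in old replicate 2 and 2.36% in young, 0.851 times (0.835 to 0.864). Members in the Cldn8 cluster had 3.29% and 3.76% of their counts there (0.874 times, 0.856 to 0.887), and members elsewhere 0.437% and 0.539%. Collecting duct-like barcodes had 1.30% and 1.45% and proximal tubule-like barcodes 0.231% and 0.214%. Members elsewhere thus held under 0.6% of their counts in the regions that marked the members. Among the regions with at least 100 CPM in members of both libraries, the highest ratio over proximal tubule-like barcodes was at the start of Mast3, a kinase gene, at chr8:70792253-70793203, with 102 and 106 CPM against 39.3 and 48.8. The next was at the start of Ptprs, a receptor phosphatase gene, at chr17:56461819-56462863, with 127 and 139 CPM against 67.3 and 81.4.

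**Figure D2:**
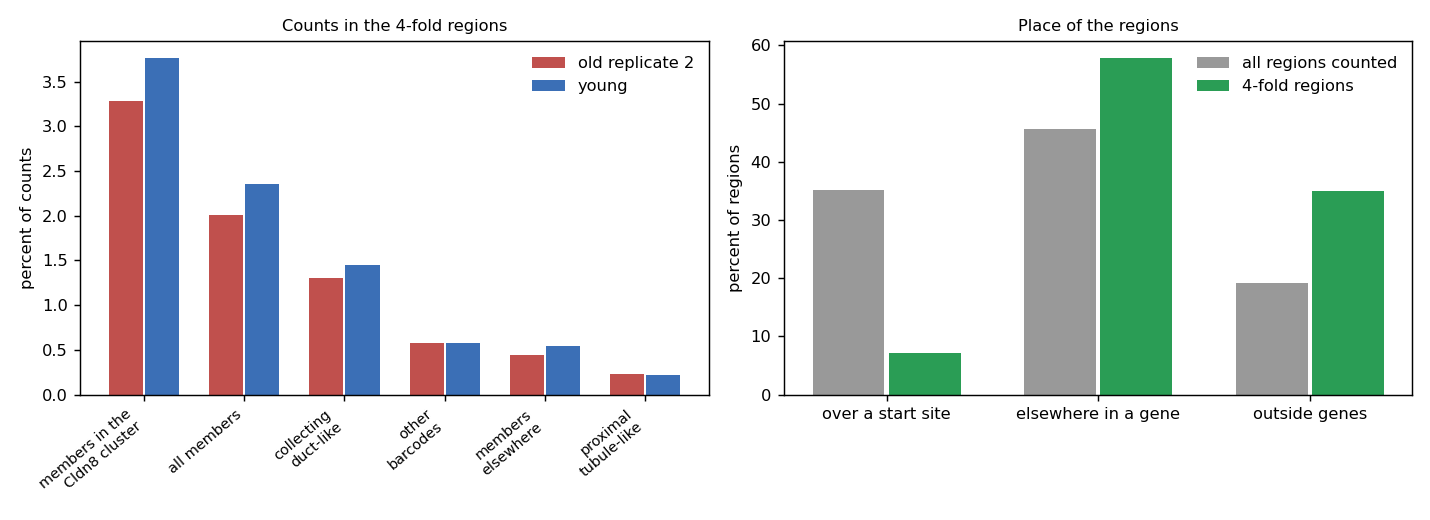
Left, percent of all counts that fell in the 1329 regions at least 4-fold more open in members, by kind of barcode and library (bars from 0). Right, percent of regions over a start site, elsewhere in a gene and outside genes; the 4-fold regions lie over a start site in 7.19% of cases and all counted regions in 35.2%.

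Among genes with at least 50 CPM in members of both libraries, rule genes left out, the smaller of the ratios over proximal tubule-like barcodes was highest at Hk1, which encodes the first enzyme of glycolysis. Its counts came to 112 CPM in members of old replicate 2 and 134 in members of the young library, 6.03 and 6.71 times the level in proximal tubule-like barcodes. Tfap2a, a transcription factor gene of the distal nephron, had 81.2 and 74.5 CPM, 4.94 and 3.83 times. Grhl2, which encodes a regulator of epithelial barriers, had 112 and 107 CPM, 3.84 and 3.56 times. Gcgr, the glucagon receptor gene, had 82.8 and 82.1 CPM, 4.24 and 3.06 times. The lactate and pyruvate transporter gene Slc16a7 had 124.8 and 124.9 CPM, 3.21 and 3.75 times. Acacb, an acetyl-CoA carboxylase gene, had 91.1 and 118 CPM, 2.87 and 2.95 times. The other 14 of the 20 genes named by this rule were Fer1l6, Ccdc13, Abcc1, Sgsm1, Ephb2, Wbscr25, Eps8l1, Lnx1, Mamstr, Lypd6b, Pde8b, Fry, Fbxo4 and Sgpp2. The 20 genes were chosen by these ratios, which are a description. Within the Cldn8 cluster Hk1 had 169 CPM in old replicate 2 and 176 in young and Tfap2a 126 and 122, so that the libraries lay close.

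Between the ages, few genes stood apart. Of 10496 genes with at least 100 fragments over the members of both libraries, 27 (0.257%) were at least 2-fold higher in old replicate 2 and 41 (0.391%) at least 2-fold lower. The median difference, old minus young, was -0.04 on the log2 scale. Within the Cldn8 cluster 5208 genes were measured, of which 10 (0.192%) were higher and 6 (0.115%) lower, with a median of -0.08. Among the salt transport, cotransporter control, calcium and magnesium, and uromodulin lists described next, no gene reached 2-fold in either direction.

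All 12 salt transport genes were measured, and they include Slc12a1, Kcnj1 and Bsnd of the rule. The other 9 summed to 917 CPM in members of old replicate 2 and 1071 in members of the young library, 0.857 times (0.793 to 0.929), and 0.865 times over all barcodes of the Cldn8 cluster (0.813 to 0.926). Their median was -0.17 on the log2 scale, and 1 of the 9 lay above 0. With the rule genes the sums were 1168 and 1421 CPM, 0.822 times. The sums without the rule genes were added after the data had been seen. Atp1b1, a subunit of the sodium pump, had 143 and 184 CPM (0.776 times, 0.641 to 0.949), and 0.808 times over all barcodes of the Cldn8 cluster. Fxyd2, a regulator of the pump, had 119 and 162 CPM (0.735 times, 0.607 to 0.929), and 0.864 times over the cluster. Kcnj10, a basolateral potassium channel, had 134 and 175 CPM (0.765 times, 0.635 to 0.956), and 0.837 times over the cluster. In proximal tubule-like barcodes the 9 genes were at 0.934 times (0.914 to 0.949).

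**Figure D3:**
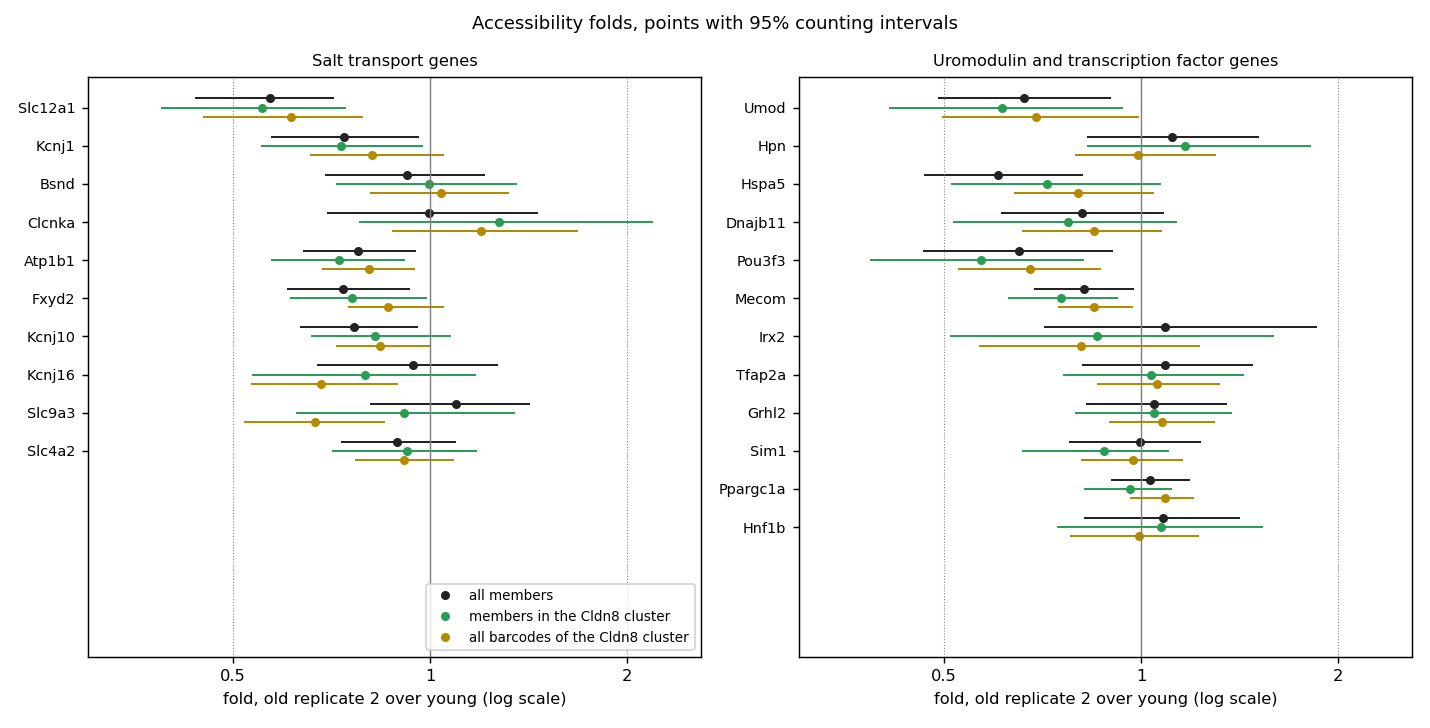
Fold of old replicate 2 over young (horizontal axis, log scale) at 10 salt transport genes, left, and at uromodulin and transcription factor genes, right, with 95% counting intervals. Slc12a1, Umod and Pou3f3 lie below 1 in all 3 sets of barcodes, and Bsnd and Tfap2a have intervals that hold 1. The counts of Slc12a1, Umod, Kcnj1 and Bsnd chose the members, so their folds are a description.

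The 12 genes that control the cotransporter summed to 1096 and 1135 CPM (0.966 times, 0.890 to 1.03). Among them Stk39, the kinase that phosphorylates the cotransporter, had 180 and 157 CPM (1.15 times, 0.949 to 1.41), and Klhl3, part of the ligase that degrades its WNK kinases, 184 and 205 CPM (0.895 times, 0.732 to 1.05). The calcium-sensing receptor gene Casr had 78.2 and 79.5 CPM (0.983 times, 0.731 to 1.30). The 14 calcium and magnesium genes summed to 990 and 1003 CPM (0.988 times, 0.913 to 1.07). In that list the magnesium channel gene Trpm6 had 74.6 and 64.9 CPM (1.15 times, 0.843 to 1.56).

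Beside Umod, the 8 genes for making and releasing uromodulin summed to 449.8 and 527 CPM (0.853 times, 0.766 to 0.962). With Umod the 9 genes were at 0.826 times in members (0.747 to 0.923). They were at 0.867 in members of the Cldn8 cluster (0.765 to 1.02) and 0.776 in members elsewhere (0.655 to 0.903). The difference was not particular to members, with 0.805 in barcodes of no class (0.767 to 0.846). Proximal tubule-like barcodes were at 0.990 (0.965 to 1.01). Hspa5, a chaperone of the endoplasmic reticulum, had 66.7 and 110.3 CPM (0.605 times, 0.468 to 0.811), while over all barcodes of the Cldn8 cluster it had 77.8 and 97.1 (0.802 times, 0.641 to 1.04). Hpn, the protease hepsin that releases uromodulin, had 78.5 and 70.5 CPM (1.11 times, 0.829 to 1.51).

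Among 20 distal nephron transcription factor genes, 14 were measured, none reached 2-fold and the median was 0.02 on the log2 scale. Pou3f3 (chr1:42695768-42700210), with 48.8 and 75.0 CPM, was 0.651 times as accessible in old replicate 2 (0.465 to 0.904), 0.569 times within members of the Cldn8 cluster and 0.677 times over all its barcodes. Mecom had 191 and 234 CPM (0.818 times, 0.689 to 0.971). Sim1, a transcription factor gene, had 124 CPM in both libraries (0.995 times, 0.778 to 1.23). Ppargc1a, the coactivator that drives mitochondrial biogenesis, had 352 and 341 CPM (1.03 times, 0.904 to 1.18).

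Genes tied to the mutated tRNA and to mitochondrial stress differed little. The 15 genes for charging and modifying mitochondrial tRNAs, centred on glutamate, summed to 728 and 742 CPM, with 8 measured and none at 2-fold. Ears2, which charges the mitochondrial glutamate tRNA, had 52.1 and 49.3 CPM (1.06 times, 0.707 to 1.48). The 28 nuclear OXPHOS genes, of which 25 were found, summed to 1143 and 1221 CPM (0.936 times, 0.870 to 1.01). The 19 integrated stress response genes, which respond to mitochondrial faults, summed to 966 and 1055 CPM (0.916 times, 0.850 to 0.995), with 10 measured and none at 2-fold. Their sum was at 1.00 times in members of the Cldn8 cluster (0.902 to 1.12) and over all its barcodes (0.937 to 1.08). In members elsewhere it was at 0.817 times (0.734 to 0.930). Ddit3 had 117 and 166 CPM (0.707 times, 0.578 to 0.884). Gdf15, a secreted stress signal, had 83.5 and 63.4 CPM (1.32 times, 1.01 to 1.88) and 1.44 times over all barcodes of the Cldn8 cluster. The 15 tubule injury genes summed to 380 and 342 CPM, with 5 measured.

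Of 58 replication-dependent histone genes 23 were measured, and 5 of these were at least 2-fold lower in old replicate 2, against 0.391% of all genes measured. The 5 are not independent, since H2bc9 and H3c7 share the same counts. The list summed to 868 CPM in members of old replicate 2 and 1295 in members of the young library, 0.671 times, and to 779 and 1137 in proximal tubule-like barcodes, 0.685 times. H2bc8 (chr13:23571400-23571863) had 21.5 and 67.5 CPM in members (0.318 times, 0.201 to 0.482) and 6.05 and 39.9 in proximal tubule-like barcodes. H3c8 had 21.8 and 64.9 CPM (0.335 times, 0.228 to 0.542). H2bc9 had 33.7 and 88.1 CPM (0.382 times, 0.276 to 0.559). Histone genes are near-identical copies that lie side by side, so their counts are uncertain by gene, and members and proximal tubule-like barcodes were both lower in the old library. The H2bc8 promoter, chr13:23571150-23571449 on the plus strand, is shown because its capitals mark the POU letters, here as the reverse complement, which are a known element of histone H2B promoters.
H2bc8: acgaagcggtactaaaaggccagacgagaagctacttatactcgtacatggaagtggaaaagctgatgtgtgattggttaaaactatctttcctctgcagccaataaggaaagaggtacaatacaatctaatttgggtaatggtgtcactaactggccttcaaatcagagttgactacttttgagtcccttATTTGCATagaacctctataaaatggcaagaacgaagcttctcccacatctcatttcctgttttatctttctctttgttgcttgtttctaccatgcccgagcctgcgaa

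The genes with the clearest difference were named by the bound of their interval nearest to 1. Among the 12 highest was Nek6 (chr2:38483863-38587490), a mitotic kinase gene, with 90.1 CPM in members of old replicate 2 and 33.2 in members of the young library (2.71 times, 1.83 to 3.93). Slc39a8 (chr3:135816882-135888572), a zinc and manganese importer gene, had 73.9 and 31.2 CPM (2.37 times, 1.56 to 3.47). Entpd2 (chr2:25395874-25401323), which encodes an enzyme that breaks down extracellular ATP, had 56.8 and 24.2 CPM (2.35 times, 1.505 to 3.85). The other 9 were Pgm5, Fbxw4, Rassf2, Vwa2, Wsb2, Pigk, Tmem255b, Alg9 and Hunk, from 1.95 to 2.57 times.

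Not all of these held over all barcodes of the Cldn8 cluster. Entpd2 stood at 2.80 times there, Wsb2 and Fbxw4 at 1.76 and Alg9 at 1.63. Nek6 came to 1.42, while Pgm5, Rassf2 and Hunk came to 0.788, 0.956 and 0.984. In members of the Cldn8 cluster alone Nek6, Pgm5, Rassf2 and Hunk stood at 2.69, 2.24, 2.41 and 2.63 times. In each library these genes, and also Alg9, Pigk and Tmem255b, were more accessible in proximal tubule-like barcodes than in members. Hunk had 138 and 139 CPM in proximal tubule-like barcodes against 89.1 and 43.8 in members. Nek6 was nearly level in old replicate 2, with 91.1 CPM against 90.1. The part of proximal tubule counts in these folds was not tested. Entpd2 and the claudin gene Cldn7 had been picked in an earlier analysis of these libraries and are no independent evidence. Cldn7 had 26.7 and 26.2 CPM in members, but 41.9 and 15.1 in those of the Cldn8 cluster (2.77 times, 1.25 to 5.75). In the same members the collecting duct rule genes summed to 76.0 and 44.6 CPM, with Foxi1 at 0, and the 7 principal cell genes outside the rule to 266 and 207, with none at 0. Their part in the difference at Entpd2 and Cldn7 was not tested.

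Of the 12 lowest genes, all but H2bc8, H3c8 and H2bc9 rested in large part on 10 barcodes of the young library. These lay in a separate cluster of 70 young and 9 old barcodes led by Klra9, Ccl11 and Grin3a, which stays unnamed. The 10 young members in it held 10.7% of all counts of the young members and 11.4% of their score, against 1 member and 0.0798% of counts in old replicate 2. Grin3a, a glutamate receptor gene, had 34.3 CPM in members of old replicate 2 and 204 in members of the young library (0.168 times, 0.125 to 0.233). Without the members of that cluster, an alternative added after the data had been seen, the value was 0.639. Tafa1 went from 0.247 to 0.777 times, Tmem266 from 0.275 to 1.03, Chn2 from 0.409 to 0.939 and Hs6st3 from 0.395 to 1.01. The cell cycle repressor genes E2f8 and E2f7 went from 0.288 and 0.294 to 0.622 and 0.748. Cmtm7 and Phf24 went from 0.264 and 0.390 to 0.688 and 0.819. H2bc8, H3c8 and H2bc9 were at 0.311, 0.331 and 0.395, and over all barcodes of the Cldn8 cluster at 0.289, 0.617 and 0.580. With old replicate 1 in place of old replicate 2, H2bc8, H3c8 and H2bc9 were at 0.767, 0.624 and 0.852. In old replicate 2 without the members of the Klra9 cluster, Slc12a1 went from 0.569 to 0.678 (0.507 to 0.846). Umod went from 0.663 to 0.778 (0.563 to 1.07) in the same setting. There the number of genes at least 2-fold lower went from 41 to 9 and the number higher from 27 to 25.

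**Figure D4:**
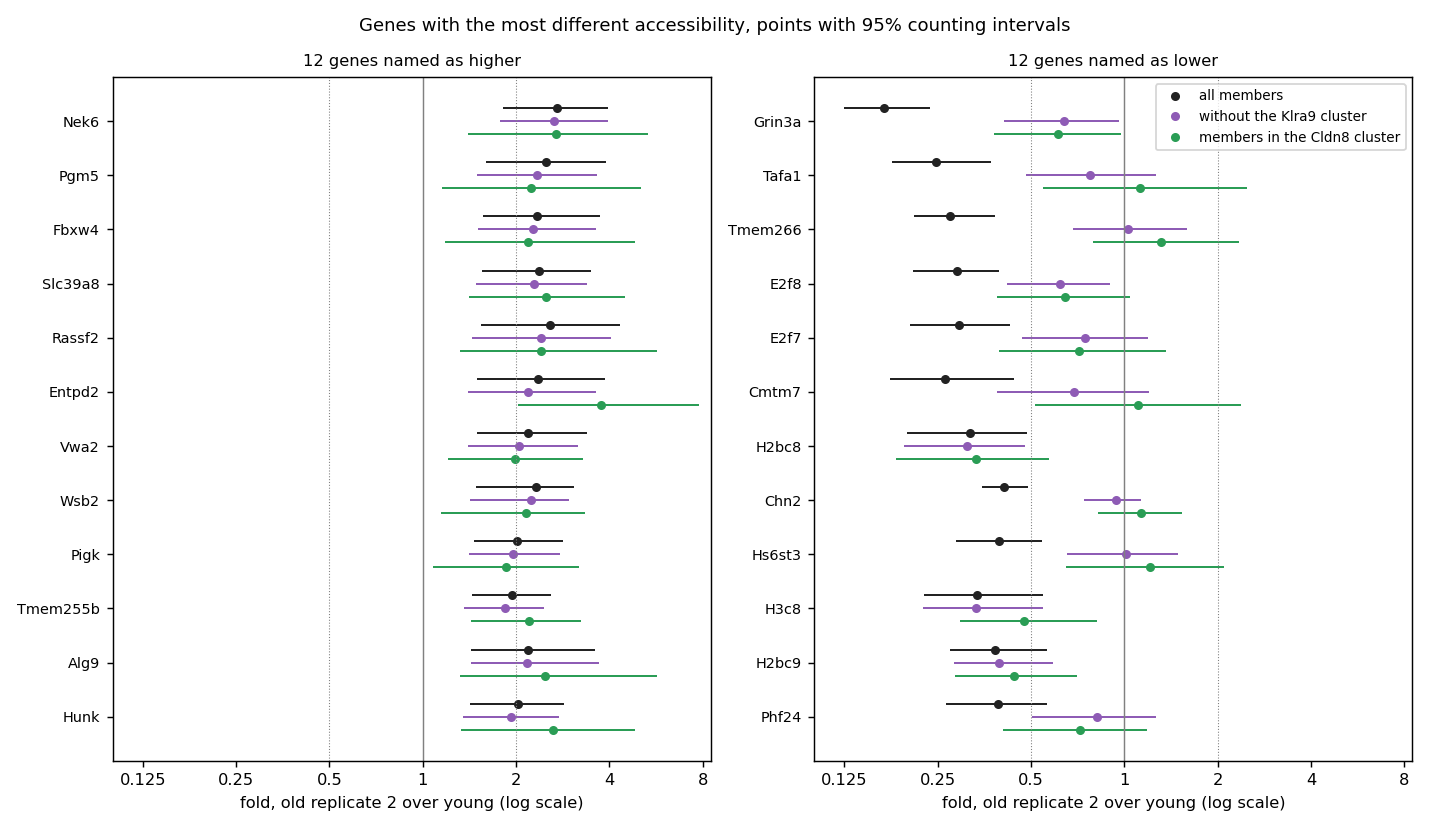
Fold of old replicate 2 over young (horizontal axis, log scale) for the 12 highest and 12 lowest genes by the rule, with 95% counting intervals, in all members, without the members of the Klra9 cluster and in members of the Cldn8 cluster. Of the 12 lowest genes, H2bc8, H3c8 and H2bc9 stay below 0.5 in all 3 sets, while Tmem266 moves from 0.275 to 1.03 and 1.31.

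Naming by the same rule within the Cldn8 cluster, added after the data had been seen, gave other genes. Opa3, a mitochondrial outer membrane gene, had 182 CPM in old replicate 2 and 71.3 in young (2.56 times, 1.77 to 3.60), and 1.64 times over all barcodes of the cluster. Prkag2, a subunit of the energy sensor AMPK, had 385 and 252 CPM (1.53 times, 1.27 to 1.89), and 1.2 times over the cluster. Iqgap2, Crlf2, Adamtsl4, Itgb5, Maff, Depdc1b, Atp9a, Igsf11, Syt2 and Tmem255b were the other 10 named as higher. Among the lower genes, Pdhb, a subunit of pyruvate dehydrogenase, had 58.0 and 123 CPM (0.472 times, 0.320 to 0.688), and Lzts3 44.3 and 109.6 (0.404 times, 0.256 to 0.596). Over all barcodes of the cluster Pdhb stood at 0.633 times and Lzts3 at 0.467. Fhit, Socs5, Cetn3, Fbxl22, Erc2, Arhgap17, Desi2 and Dach1 were also named as lower. In proximal tubule-like barcodes Opa3 and Prkag2 stood at 1.378 and 1.167 times, and Pdhb and Lzts3 at 0.8102 and 0.9225. Old replicate 1 was also set beside young, over all members of each. In that setting Opa3 was at 1.096 times (0.781 to 1.553) and Pdhb at 1.019 (0.742 to 1.429). Prkag2 was at 1.324 (1.0796 to 1.614) and Lzts3 at 0.5125 (0.287 to 0.856).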

How the data were processed

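Chromatin accessibility was measured in 3 mouse kidney libraries, of which old replicate 2 and young entered the comparison. Groups follow the sample titles. The submitters' processing notes name Cell Ranger ATAC 2.1.0 and mm10. The deposited values are whole-number counts for each peak in each barcode, not normalized, with peaks called on each library alone. Most nonzero counts were even (90.9% and 89.5% in old replicate 2 and young), so intervals rest on fragments, taken as the count divided by 2 and rounded up.

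Peaks overlapping by at least 1 bp were merged, and the 118097 of 173607 regions with a peak in both libraries were used; they held 96.2% and 96.1% of counts. CPM is relative to counts in those regions, which came to 3030004 and 1986280 over the members. A gene is the sum of regions over its RefSeq body with 2 kb flanks. Folds have exact conditional binomial 95% intervals, and a 0 was set to 3 counts for a ratio. PCR and shared cells make true errors larger. Barcodes were clustered by latent semantic indexing of regions open in at least 1% of cells (30 components) and the Leiden method (20 neighbours, resolution 1, seed 7; leidenalg 0.10.2, igraph 0.11.9, scikit-learn 1.9.0, scipy 1.17.1, numpy 2.4.6, Python 3.11.15). TMM scaling used edgeR 4.0.16. Doublets were kept and removed as an alternative, by simulated doublets with 50 neighbours at 0.8% per 1000 barcodes; this took 7 and 2 members.

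Named genes were those with at least 100 fragments, the 12 highest and 12 lowest by the interval bound nearest to 1, without predicted genes, clones, pseudogenes and rule genes; over proximal tubule-like barcodes, the 20 genes with at least 50 CPM and the highest smaller ratio; of the regions with at least 100 CPM the 6 highest, and start-site regions of rule genes; and members of the lists. Members, lists and motifs were chosen with earlier results of these data known. The fold was tested on simulated data. Alternatives are given in the closing section. Region sequences away from promoters were not used here, and some named genes are not reported here.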

Additional observations from a re-analysis of the deposited data

Results flagged for a closer look

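Old replicate 1, a 75-week library with 75% mutation load, entered the results above only through its values at some named genes. Of its barcodes with at least 1000 counts, 2.98% were proximal tubule-like and 93.9% of no class, against 51.6% and 43.0% in old replicate 2. On each library's own peaks, the macrophage or dendritic cell genes summed to 694 CPM in barcodes of no class, against 115 in old replicate 2. Old replicate 1 held 41 barcodes that pass the same rule among 5563 with at least 1000 counts, or 0.737% (exact 95% interval 0.529% to 0.999%). These barcodes were flagged because the comparison of old replicate 2 with young left them out, and their number was not tested. Their median was 27663 counts. Kcnj1 gave 33.1% and Bsnd 27.9% of their score, and Slc12a1 12.3%. On the library's own peaks, Slc12a1 had 32.8 CPM in these barcodes and 9.87 in the proximal tubule-like barcodes of the same library.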

How the results depend on the processing

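The share of members was 1.25% and 1.22% (old replicate 2 and young) with a score of at least 8. It was 2.55% and 1.65% with members of the Cldn8 cluster only. Without members with as many distal convoluted tubule counts it was 2.47% and 1.70%, and with barcodes thinned to 3000 fragments 1.89% and 1.57%. In old replicate 1, where 93.9% of barcodes were of no class, it was 0.737%. Genes at least 2-fold higher and lower numbered 5 and 24 with a score of at least 8 and 10 and 6 in the Cldn8 cluster. They numbered 6 and 6 without members with distal convoluted tubule counts, 80 and 71 with each library's own peaks and 5 and 17 with start sites only. With members thinned to 3000 fragments they were 3 and 2. The thinned and stricter settings measured fewer genes. With at least 30 fragments they were 480 and 329, but that minimum takes in more genes, with fewer fragments each. Without the Klra9 cluster 9 genes were lower, and over all barcodes of the Cldn8 cluster 13. As shares, 0.257% and 0.391% of 10496 measured genes were higher and lower over all members. In members of the Cldn8 cluster these were 0.192% and 0.115% of 5208. Counts from settings that measured different numbers of genes cannot be compared as shares, and a changed count alone is not read as a changed result. With 3000 counts per barcode, doublets removed, TMM or median-of-ratios scaling, or fragments, both counts stayed within 1.5 times. All other barcodes in place of proximal tubule-like ones gave 1080 regions for 1329.

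Some named genes changed direction; where not stated above, the cause was not tested. In members of the Cldn8 cluster Tafa1 was at 1.12, Tmem266 1.31, Cmtm7 1.11, Chn2 1.13 and Hs6st3 1.21 times. With old replicate 1, Pgm5 was at 0.856, Tmem266 1.57, E2f7 1.26, Chn2 1.06 and Hs6st3 1.06. With start sites Hs6st3 was at 1.59. Without the Klra9 cluster Tmem266 was at 1.03 and Hs6st3 at 1.01. Over all barcodes of the Cldn8 cluster Pgm5 was at 0.788, Rassf2 0.956, Hunk 0.984, Tmem266 1.19, E2f7 1.04, Cmtm7 1.39 and Hs6st3 1.05. With start sites Tmem255b, at 1.95 over all members, was at 0.874 (0.113 to 11.8). Slc12a1 ranged from 0.523 to 0.689 and Umod from 0.574 to 0.835 over 15 alternatives. Both are rule genes whose counts chose the members, so these ranges are a description and nothing is read from them. No paired analysis was possible because each age had 1 library.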

Other observations

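Old replicate 1 was set beside young at the genes named above, over regions with a peak in both of these libraries. Its members had Entpd2 at 1.86 times the young members, Slc39a8 at 2.06 times, Nek6 at 1.99 times and Wsb2 at 4.63 times, and Pgm5 at 0.856 times. Of the genes lower in old replicate 2, the histone genes lay nearer to 1 in old replicate 1, with H2bc8 at 0.767 times (0.493 to 1.21), H2bc9 at 0.852 times and H3c8 at 0.624 times, and E2f8 was at 0.932 times. With 41 barcodes at another mutation load these are values only. 

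In the interferon and antigen presentation list, 10 of 21 genes were measured and 1 was at least 2-fold higher in members of old replicate 2, against 0.257% of all genes measured. That gene was Nlrc5, an activator of MHC class I genes, with 62.4 and 29.7 CPM (2.1 times, 1.29 to 3.01) and 1.5 times over all barcodes of the Cldn8 cluster. Tap1, a peptide transporter gene, had 60.7 and 40.3 CPM (1.51 times, 1.07 to 2.32) and 1.16 times over the cluster. The 21 genes together differed little, at 712 and 686 CPM (1.04 times, 0.949 to 1.15). Of the 10 measured, 5 lay above 0 on the log2 scale, with a median of -0.02 and a lowest value of -0.67.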
